A study of Mus musculus with 38 samples.

Results

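The genes examined encode receptor chains and signalling proteins of the interleukin (IL)-22, IL-6 and IL-17 pathways: Il22ra1, Il10rb, Il22ra2, Il6ra, Il6st, Osmr, Il17ra, Stat3 and Socs3. These 9 genes were chosen by name from the 46078 genes counted, with earlier results of these data known. The rule itself uses no measured value. Expression was measured by RNA sequencing in intestinal epithelial cells isolated from C57BL/6 mice, while the text on the whole study speaks of colon tissue. KO mice carried floxed Hk2 alleles (hexokinase 2, which phosphorylates glucose at the start of glycolysis) and Cre recombinase driven by the Villin promoter, which is active in intestinal epithelium, so that cells of other types in a preparation keep Hk2. WT mice were littermates with floxed Hk2 alleles. Colitis was induced in co-housed male mice aged 10 to 12 weeks with 1.5% (w/v) dextran sodium sulfate (DSS), a polymer given in drinking water that injures the colonic epithelium. Of the WT mice, 4 were untreated (day 0), 7 had received DSS for 3 days and 7 for 7 days. Of the KO mice these numbers were 5, 8 and 7, and each library carries the number of 1 animal. The labels give 9 to 11 or 86 to 92 weeks as the ages of mice studied without colitis and do not say which of these the day 0 mice had.

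IL-22 and IL-17 come mainly from lymphoid cells, and IL-6 and oncostatin M from macrophages, neutrophils and stromal cells. On epithelial cells, IL-22 binds a pair of Il22ra1 and Il10rb, and the IL-6 family binds pairs or complexes that contain Il6st. These receptors of IL-22 and of the IL-6 family activate Janus kinases, which phosphorylate the transcription factor STAT3. STAT3 induces genes of mucosal defence and repair and also its own inhibitor SOCS3, which binds receptors that contain Il6st and stops the kinases. In the mouse gut, IL-22 acting through STAT3 is known for protecting the epithelium in DSS colitis.

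Osmr and Socs3 rose from day 3 to day 7 of DSS in WT and in KO mice. Osmr was 7.63-fold higher in WT and 7.54-fold higher in KO on day 7, and Socs3 was 3.08-fold and 2.62-fold higher. The decoy receptor Il22ra2 rose in WT (log2 fold change 1.26) and was at -0.45 in KO, where it did not pass. Stat3 (0.45 in WT, 0.36 in KO) and Il17ra (0.35 and 0.41) passed in WT, and Il10rb (0.23 and 0.24) passed in KO. These 3 calls were lost in most fits that left out 1 library: Stat3 kept its call in 4 of 14, Il17ra in 6 of 14 and Il10rb in 7 of 15. None of the genes differed between KO and WT on any day at an adjusted p under 0.05. Against day 0, Socs3 was higher and Il22ra1 was lower on day 3 in both genotypes.

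Libraries held 10.5 to 60.6 M counts, and the lowest total was on day 0. The median was 18 M in WT day 0 and 14.4 M in KO day 0, against 42.4 to 47 M in the groups of days 3 and 7. Low counts are thus measured less precisely on day 0. Levels are counts per M counts of a library (CPM) scaled by TMM, a factor that corrects for differences in RNA composition, and levels are compared between genes only as RPKM, which also divides by the kilobases of exon. Gene coordinates are those of the deposited tables, on GRCm38. Day 0 libraries carry another prefix in their deposited names (G, against I on days 3 and 7), which is read here as a library series of their own. The effects of day and of series cannot be told apart where day 0 is one side of a comparison. The targeted gene Hk2 was at 254.4 to 448.9 CPM in WT day 0 and at 33.1 to 118.0 CPM in KO day 0. Its ranges overlapped on day 3 (WT 97.0 to 220.5 CPM, KO 68.4 to 434.6 CPM) and on day 7 (WT 228.2 to 611.1 CPM, KO 56.1 to 268.1 CPM). The library labelled d3_KO_345 had 434.6 CPM of Hk2, above every WT library of day 3, a value that goes against its label. This library also had the highest summed neutrophil and macrophage markers of KO day 3. The reason for its Hk2 level was not tested, and results that rest on this library are given with and without it. Hk2 in the rest of KO day 3 was 68.4 to 127.9 CPM. All 8 epithelial markers examined were above 0 in every library, and their summed level was 10370 to 20500 CPM. Replicates are animals, told apart by their numbers in the labels, and p-values measure the spread between them.

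**Figure D1:**
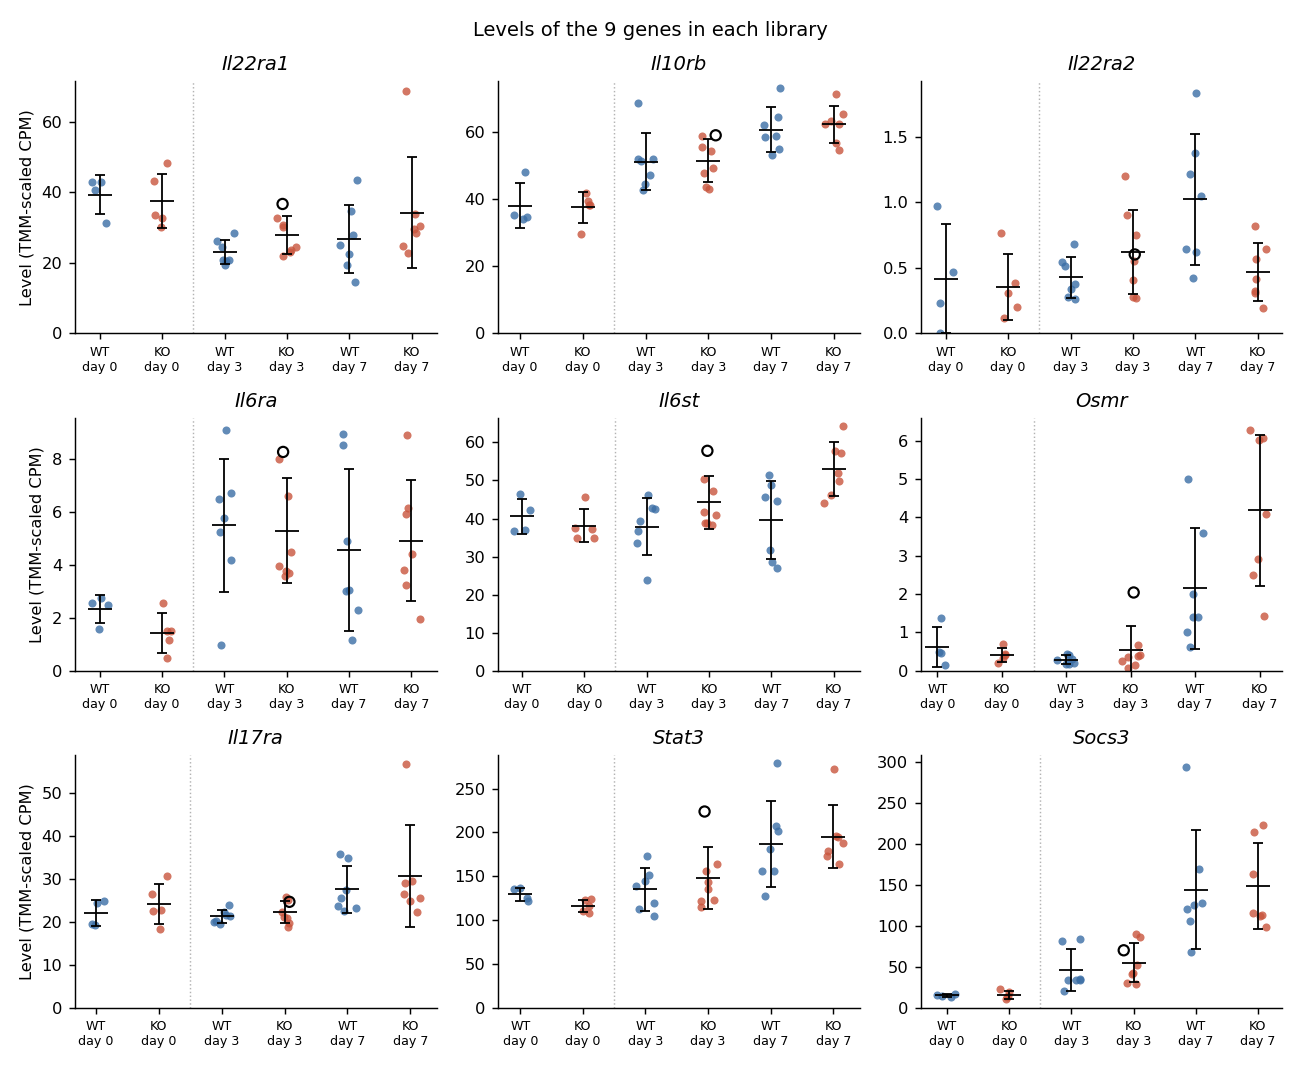
Level of each of the 9 genes in each library, in TMM-scaled CPM on a linear axis that starts at 0, by genotype and day. Points are libraries (WT blue, KO red), the open black circle is the library labelled d3_KO_345, and bars are the mean ± SD, ending at 0 where the SD exceeds the mean. The dotted line separates the day 0 library series. Socs3 and Osmr stand highest on day 7 in both genotypes, and the mean of Il22ra1 is lowest in WT day 3, whose libraries had 19.5 to 28.5 CPM.

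The order of the genes differed between day 0 and day 7, a comparison in which day and library series cannot be told apart. On day 0, Il22ra1 and Stat3 had the highest levels, at 15.3 ± 2.16 RPKM and 13.6 ± 0.782 RPKM in WT (SD, n = 4), and their libraries overlapped. Il10rb followed at 10.0 ± 1.76 RPKM, then Il17ra at 5.56 ± 0.752, Socs3 at 5.18 ± 0.567 and Il6st at 3.66 ± 0.414 RPKM. Il6ra, Il22ra2 and Osmr were far lower, at 0.271 ± 0.0605, 0.168 ± 0.166 and 0.0506 ± 0.0435 RPKM, and overlapped in turn. On day 7, Socs3 ranked highest in WT at 49.9 ± 25.2 RPKM and in KO at 51.4 ± 18.02 RPKM (SD, n = 7 each), followed by Stat3 at 19.6 ± 5.19 and 20.5 ± 3.78 RPKM. Socs3 libraries stood apart from Stat3 libraries in KO day 7 and overlapped them in WT day 7. Il6ra, Osmr and Il22ra2 were still the lowest there, at means of 0.177 to 0.568 RPKM.

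Il22ra1 is the chain that gives the IL-22 receptor its specificity (ENSMUSG00000037157; chromosome 4, 135728172 to 135752140, plus strand). On day 0 the WT libraries had 42.8, 40.5, 31.2 and 42.9 CPM, and the KO libraries 43.2, 30.3, 32.7, 33.5 and 48.2 CPM. On day 3 the level was 19.5 to 28.5 CPM in WT (median 20.8) and 21.9 to 36.7 CPM in KO (median 27.3), and on day 7 it was 14.6 to 43.4 CPM in WT (median 25.02) and 22.9 to 68.8 CPM in KO (median 29.6). All 7 WT libraries of day 3 lay below the 4 of day 0, while on day 7 the groups overlapped again. Between day 7 and day 3 the log2 fold change was 0.20 in WT (SE 0.19, adjusted p 0.52 by edgeR) and 0.25 in KO (SE 0.20, adjusted p 0.447 by edgeR), and neither passed. The KO value depends on d7_KO_420, the highest library, without which it was -0.01.

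Il10rb is the chain that the receptors of IL-22 and IL-10 share (ENSMUSG00000022969; chromosome 16, 91406164 to 91425834, plus strand). Its exons share 569 bases with Gm21970 on the same strand, a gene with a total count of 0 here. Levels were 42.7 to 68.6 CPM in WT day 3 (median 51.5), 43.2 to 59.1 CPM in KO day 3 (median 52.0), 53.4 to 73.2 CPM in WT day 7 (median 58.8) and 54.8 to 71.4 CPM in KO day 7 (median 62.6). The days overlapped in each genotype. Il10rb rose in KO by a log2 fold change of 0.24 (SE 0.08, adjusted p 0.0421 by edgeR). In WT the change was 0.23 (SE 0.10, adjusted p 0.148 by edgeR). When each library was left out in turn, the KO call held in 7 of 15 fits, with an adjusted p of up to 0.0954, and the WT change passed without d3_WT_381 alone (0.30, adjusted p 0.0165 by edgeR).

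Il22ra2 encodes IL-22 binding protein, a soluble receptor that captures IL-22 and keeps it from cells, and that dendritic cells are known to make (ENSMUSG00000039760; chromosome 10, 19621998 to 19634681, plus strand). It was near the limit of detection: no library had more than 85 counts, and 1 WT day 0 library had 0 counts, which allows up to 3 counts. On day 3 WT libraries had 0.265 to 0.686 CPM (median 0.377) and KO libraries 0.269 to 1.2 CPM (median 0.576). On day 7 WT libraries had 0.423 to 1.83 CPM (median 1.05) and KO libraries 0.196 to 0.819 CPM (median 0.419). WT libraries were thus mostly higher on day 7 than on day 3, with an overlap, and KO libraries were not. In WT Il22ra2 rose by 2.39-fold (log2 1.26, SE 0.33, adjusted p 0.0133 by edgeR), a call made in all 14 fits that each left out 1 library. In KO its log2 fold change was -0.45 (SE 0.36, adjusted p 0.441 by edgeR). The change of the genotype difference between these days, which tests the contrast itself, was -1.69 (SE 0.50, unadjusted p 0.00215) and did not pass after adjustment (adjusted p 0.9999 by edgeR).

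Il6ra is the chain that binds IL-6 (ENSMUSG00000027947; chromosome 3, 89864059 to 89913196, minus strand). Its exons share 242 bases with RP24-122I22.6 on the opposite strand, a gene with 41 counts in all libraries together. WT libraries had 0.987 to 9.12 CPM on day 3 (median 5.76) and 1.18 to 8.96 CPM on day 7 (median 3.04). KO libraries had 3.59 to 8.27 CPM on day 3 (median 4.23) and 1.95 to 8.90 CPM on day 7 (median 4.41). The days overlapped almost fully, and the log2 fold changes from day 3 to day 7 were -0.29 in WT (SE 0.43, adjusted p 0.694 by edgeR) and -0.15 in KO (SE 0.29, adjusted p 0.774 by edgeR).

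Il6st encodes gp130, the chain through which IL-6, oncostatin M, LIF and IL-11 all signal (ENSMUSG00000021756; chromosome 13, 112464070 to 112510086, plus strand). Levels were 23.8 to 46.3 CPM in WT day 3 (median 39.3), 38.4 to 57.8 CPM in KO day 3 (median 41.3), 26.9 to 51.6 CPM in WT day 7 (median 44.5) and 44.2 to 64.4 CPM in KO day 7 (median 52.1). The lowest library of WT day 3 was d3_WT_381, and the highest of KO day 3 was d3_KO_345. Il6st changed by 0.05 in WT from day 3 to day 7 (adjusted p 0.877 by edgeR). In KO the change was 0.23 (SE 0.10, adjusted p 0.13 by edgeR), and without the library labelled d3_KO_345 it was 0.28 and passed (SE 0.09, adjusted p 0.0324 by edgeR).

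Osmr is the chain that pairs with Il6st to bind oncostatin M and is known for high levels in stromal cells (ENSMUSG00000022146; chromosome 15, 6813577 to 6874969, minus strand). WT libraries had 0.16 to 0.439 CPM on day 3 (median 0.287) and 0.613 to 5.00 CPM on day 7 (median 1.41), with no overlap. KO libraries had 0.0685 to 2.04 CPM on day 3 (median 0.375) and 1.42 to 6.27 CPM on day 7 (median 4.07). The only KO day 3 library above the lowest KO day 7 library was the one labelled d3_KO_345, at 2.04 CPM, since the others reached at most 0.671 CPM. Osmr rose by a log2 fold change of 2.93 in WT (SE 0.45, adjusted p 0.00039 by edgeR) and of 2.92 in KO (SE 0.55, adjusted p 0.00132 by edgeR). Without d3_KO_345 the KO change was 3.67 (SE 0.44, adjusted p 3.47e-05 by edgeR). Fibroblast and stroma markers (8 of 8 in the files) summed to 9.97 to 106.9 CPM in WT day 3, 12.0 to 126.8 CPM in KO day 3, 15.9 to 117.6 CPM in WT day 7 and 24.6 to 222.9 CPM in KO day 7. Of these markers, 0 of 8 in WT and 1 of 8 in KO (Thy1) rose from day 3 to day 7. Thy1 is also among the T cell and innate lymphoid markers used here. The part of stromal cells in the rise of Osmr was not tested.

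Il17ra is the common chain of the receptors for IL-17 cytokines, which signal through adaptor proteins rather than STAT3 (ENSMUSG00000002897; chromosome 6, 120463197 to 120483727, plus strand). It ranged over 19.6 to 23.98 CPM in WT day 3 (median 21.4) and 22.6 to 35.9 CPM in WT day 7 (median 25.6). KO libraries had 18.9 to 25.9 CPM on day 3 (median 21.8) and 22.3 to 56.9 CPM on day 7 (median 26.5). The days overlapped in both genotypes, and d7_KO_420 stood above the other KO day 7 libraries, which reached 29.5 CPM. Il17ra rose in WT by a log2 fold change of 0.35 (SE 0.11, adjusted p 0.0334 by edgeR), a call kept in 6 of 14 fits that each left out 1 library (adjusted p up to 0.0757). In KO the change was 0.41 (SE 0.16, adjusted p 0.0851 by edgeR), and 0.20 without d7_KO_420.

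Stat3, the transcription factor on which the receptors of IL-22 and of the IL-6 family converge, was well measured, with at least 926 counts in every library (ENSMUSG00000004040; chromosome 11, 100885098 to 100939540, minus strand). Its exons share 72 bases with Stat5a on the opposite strand, and the unstranded counting cannot tell reads there apart. Stat3 was at 104.8 to 173.2 CPM in WT day 3 (median 138.3), 115.2 to 223.8 CPM in KO day 3 (median 139.4), 127.5 to 279.2 CPM in WT day 7 (median 181.0) and 164.1 to 272.7 CPM in KO day 7 (median 187.7). The highest library of KO day 3 was again d3_KO_345, and the next had 163.5 CPM, just under the lowest KO day 7 library. Stat3 rose in WT by 1.36-fold (log2 0.45, SE 0.15), with an edgeR adjusted p of 0.04998 that lay just inside the threshold. With each library left out in turn, 4 of 14 fits kept this call, and without d7_WT_356 the change was 0.33 (adjusted p 0.102 by edgeR). In KO the change was 0.36 (SE 0.13, adjusted p 0.0664 by edgeR), and it passed without d3_KO_345, at 0.47 (SE 0.11, adjusted p 0.00524 by edgeR).

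Socs3, the feedback inhibitor, is a direct target of STAT3 in many cell types (ENSMUSG00000053113; chromosome 11, 117966079 to 117970047, minus strand). WT libraries had 15.6, 13.1, 16.9 and 14.4 CPM on day 0, and KO libraries 22.98, 13.02, 10.48, 18.65 and 14.28 CPM. On day 3 the level was 21 to 83.5 CPM in WT (median 34.1) and 28.8 to 89.7 CPM in KO (median 47.2). On day 7 it was 68.0 to 294.3 CPM in WT (median 125.1) and 98.5 to 223.3 CPM in KO (median 115.2). KO libraries of day 7 all lay above those of day 3, and in WT only d7_WT_386, at 68.0 CPM, lay below the highest day 3 libraries. Socs3 rose by a log2 fold change of 1.62 in WT (SE 0.34, adjusted p 0.00356 by edgeR) and of 1.39 in KO (SE 0.27, adjusted p 0.00147 by edgeR), and both calls held in every fit that left out 1 library.

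The bases upstream of the RefSeq starts of Socs3 and Stat3 are shown because these genes encode the inhibitor and the transcription factor of one feedback loop. Both genes lie on chromosome 11. STAT dimers are known to bind TTCNNNGAA, and capitals mark each match within the 250 bases before the RefSeq start site (build GRCm38.p6), printed 5′ to 3′ on the gene's own minus strand. The windows are chr11:117969367-117969616 for Socs3 and chr11:100939541-100939790 for Stat3.
Socs3: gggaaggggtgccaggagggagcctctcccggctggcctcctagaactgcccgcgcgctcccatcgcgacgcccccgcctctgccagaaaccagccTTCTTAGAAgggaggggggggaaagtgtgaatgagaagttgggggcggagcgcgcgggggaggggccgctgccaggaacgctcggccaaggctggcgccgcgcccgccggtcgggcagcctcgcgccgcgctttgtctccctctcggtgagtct
Stat3: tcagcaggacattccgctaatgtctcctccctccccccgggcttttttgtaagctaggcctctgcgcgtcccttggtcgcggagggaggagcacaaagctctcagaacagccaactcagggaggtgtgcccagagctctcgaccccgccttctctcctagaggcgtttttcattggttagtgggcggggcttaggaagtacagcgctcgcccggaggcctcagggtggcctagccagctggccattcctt
The Socs3 match, TTCTTAGAA, reads the same pattern on both strands and lies 154 to 146 bases before the start site (chromosome 11, 117969512 to 117969520). RefSeq promoters were found for 6 of the 9 genes (Il22ra1, Il6ra, Il6st, Osmr, Stat3 and Socs3), and 1 of the 6 windows held the motif. Of all 32841 promoters in the same table, 7.02% held it within 250 bases and 0.317% held it at least 2 times. A match is only a match of letters: binding of STAT3 was not measured here. The RefSeq start of Socs3 lies 180 bases upstream of that of the protein-coding transcript in the GENCODE annotation of the same build. The GENCODE transcripts Socs3-203 and Socs3-202, which are not protein-coding, start upstream of the RefSeq start, at 117969451 and 117970047. The printed Socs3 window and its match thus lie within the gene interval given above.

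Together, 5 of 9 genes were called higher on day 7 than on day 3 in WT (Il22ra2, Osmr, Il17ra, Stat3 and Socs3) and 3 of 9 in KO (Il10rb, Osmr and Socs3), with none lower. The share of all tested genes was 10.6% higher and 8.7% lower in WT, 10.5% higher and 8.83% lower in KO, and 19.3% in either direction in each genotype. The median log2 fold change of the 9 genes was 0.35 in WT and 0.25 in KO, beside 0.013 and -0.0067 over all genes tested. Libraries of the days did not overlap for 1 of 9 genes in WT (Osmr) and 1 of 9 in KO (Socs3), beside 4.6% and 5.07% of all genes. Without the library labelled d3_KO_345, 5 of 9 genes were called in KO, with Stat3 and Il6st added, where 3425 of all 15413 genes tested were called.

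**Figure D2:**
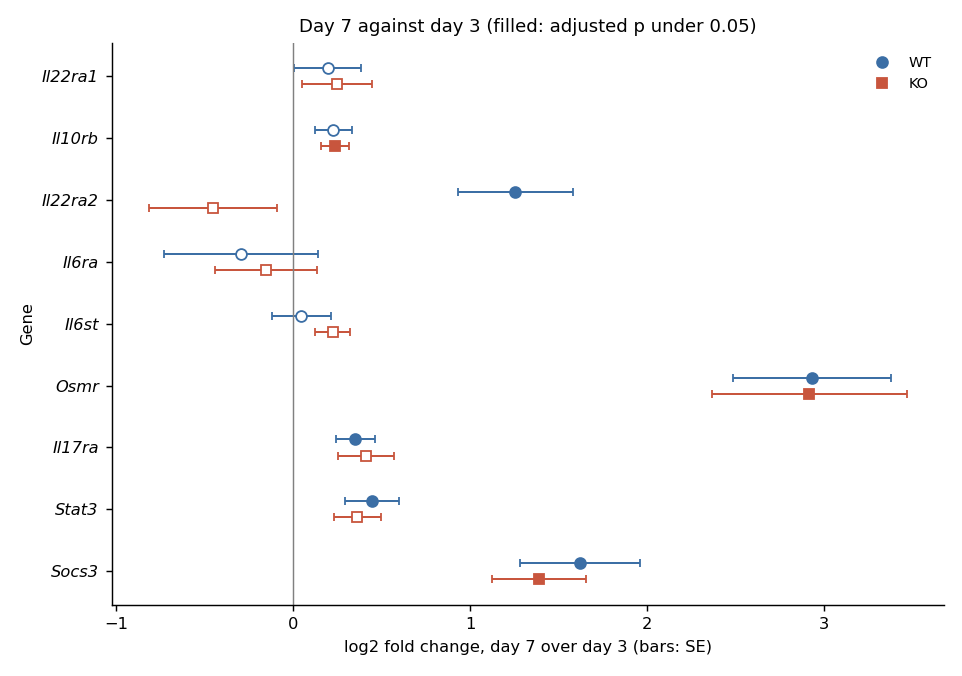
Log2 fold change of each gene from day 3 to day 7 in WT (blue circles) and KO (red squares), with bars of 1 SE and filled symbols for an adjusted p under 0.05 in edgeR. Osmr lies near 2.9 in both genotypes and Socs3 at 1.62 and 1.39. Il22ra2 lies at 1.26 in WT and at -0.45 in KO.

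Il22 was barely detected in the epithelial preparations, while transcripts of several IL-6 family ligands rose during colitis. Il22 had 0 counts in all 9 day 0 libraries, and at most 6 counts in WT day 3 and 3 in KO day 3. On day 7 it reached 29 counts in WT and 19 in KO (at most 0.626 and 0.492 CPM), too few for the filter on low counts in the comparison of days. Of 8 IL-6 family ligands, 6 could be tested between day 7 and day 3, and 3 were higher and 1 lower in each genotype. Osm, which encodes oncostatin M, rose by a log2 fold change of 5.50 in WT (SE 0.65, adjusted p 7.6e-05 by edgeR), from 0.233 to 11.3 CPM on average. In KO, Osm rose by 3.81 (SE 0.95, adjusted p 0.00889 by edgeR), from 0.923 to 13.6 CPM. The library labelled d3_KO_345 had the highest Osm of KO day 3, at 5.74 CPM (276 counts), and without it Osm rose by 5.85 in KO (SE 0.77, adjusted p 6.98e-05 by edgeR). Il6 rose in WT by 2.74 (SE 0.58, adjusted p 0.00409 by edgeR), to 1.68 CPM, and changed by 2.05 in KO (SE 0.70, adjusted p 0.0506 by edgeR), to 1.79 CPM. Without d3_KO_345, Il6 passed in KO as well (3.16, SE 0.58, adjusted p 0.00107 by edgeR), which made 4 ligands higher and 1 lower. Clcf1, a ligand of the receptor for ciliary neurotrophic factor, was higher in both genotypes, Ctf1 (cardiotrophin 1) was lower in both, and Il11 was higher in KO.

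Of 13 other receptor chains of these families, 9 were tested, of which 2 were higher and 3 lower in WT, and 1 was higher and 3 lower in KO. Il10ra, the specific chain of the IL-10 receptor and known mainly from leukocytes, rose by 3.46 in WT (SE 0.40, adjusted p 6.7e-05 by edgeR) and 2.61 in KO (SE 0.47, adjusted p 0.000956 by edgeR), or 3.35 in KO without d3_KO_345 (SE 0.29). Lifr, which pairs with Il6st to bind LIF, fell by 2.21 on the log2 scale in WT (SE 0.31, adjusted p 0.000216 by edgeR) and by 1.40 in KO (SE 0.37, adjusted p 0.014 by edgeR). Il11ra1, the IL-11 receptor chain, fell by 0.70 and 0.65, with 8.62 to 11.2 CPM in WT day 3 against 4.67 to 7.10 CPM in WT day 7. Il20rb (1.01) rose and Il17rd (-0.87) fell in WT, and Il17re (-0.26), a chain of the receptor for IL-17C, fell in KO. Without d3_KO_345 the KO counts were 1 higher and 4 lower, with Il17rb, the IL-25 receptor chain, added.

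All 15 kinases, other STATs and adaptors were tested. In WT, 4 were higher on day 7 (Jak2, Jak3, Traf6 and Stat4) and in KO 5, with none lower. Jak3, a kinase of receptors with the common gamma chain, rose by 0.78 in WT (SE 0.17, adjusted p 0.00463 by edgeR) and 0.96 in KO (SE 0.12, adjusted p 4.9e-05 by edgeR). Jak2, which transmits signals of Il6st, was at 63.5 to 77.9 CPM in WT day 3 and 78.0 to 122.0 CPM in WT day 7, and its rise was 0.37 (SE 0.09, adjusted p 0.0122 by edgeR). Without d3_KO_345, 6 of 15 were higher in KO, with Ptpn11 added.

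Of 13 other inhibitors of the pathway, all tested, 1 was higher and 2 were lower in WT, and 2 were higher and 1 lower in KO. In WT, Zc3h12a, which encodes the RNase regnase-1, rose by 0.73, and Cish and Socs5, members of the SOCS family, fell by 0.80 and 0.86 on the log2 scale. In KO, Socs1 rose by 1.46, Ptpn1 rose by 0.39 and Cish fell by 0.76 on the log2 scale. Socs3 thus rose while Cish, of the same family, fell in both genotypes (for Cish, adjusted p 0.00102 by edgeR in WT and 0.00501 in KO).

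Among 20 target genes of STAT3 from many cell types, 6 were higher and 1 lower in WT and in KO. Lrg1, an acute-phase glycoprotein that neutrophils also hold, rose by 5.56 in WT (SE 0.72, adjusted p 0.000125 by edgeR) and 5.19 in KO (SE 0.61, adjusted p 4e-05 by edgeR), or 5.90 in KO without d3_KO_345 (SE 0.55). Pim1, a survival kinase, rose by 1.23 and 1.13, and Il4ra, the IL-4 receptor chain, by 1.31 and 1.34 (edgeR adjusted p at most 0.000293 for each). Ccnd1, the cell-cycle gene of cyclin D1, rose by 0.52 and 0.85. Cebpd, a transcription factor of the acute-phase response, fell by 0.65 on the log2 scale in WT (adjusted p 0.0275 by edgeR) and changed by -0.62 in KO (adjusted p 0.0704 by edgeR). Without d3_KO_345 the counts in KO were 7 higher and 3 lower, and Cebpd passed (-0.69, adjusted p 0.0437 by edgeR).

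Of the 24 response genes to IL-22 and IL-17 in gut epithelium, 19 were higher and 0 lower in WT on day 7. In KO, 16 of 23 tested were higher and 0 were lower. The median log2 fold change of the list was 1.90 in WT and 1.64 in KO. S100a8 and S100a9, the subunits of calprotectin, rose by 9.82 and 9.50 in WT and by 6.73 and 6.29 in KO, and neutrophils also hold these proteins in large amounts. Without d3_KO_345 the KO rises were 9.63 and 9.05, and again 16 of 23 genes of the list were higher. Nos2, inducible nitric oxide synthase, rose by 4.66 in WT (SE 0.59, adjusted p 0.000115 by edgeR) and 4.62 in KO (SE 0.38, adjusted p 5e-06 by edgeR). Saa3, serum amyloid A3, rose by 4.65 in WT and 5.26 in KO. The antimicrobial lectins Reg3b and Reg3g, the fucosyltransferase gene Fut2 and the oxidase genes Duox2 and Duoxa2 were called higher in both genotypes.

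**Figure D3:**
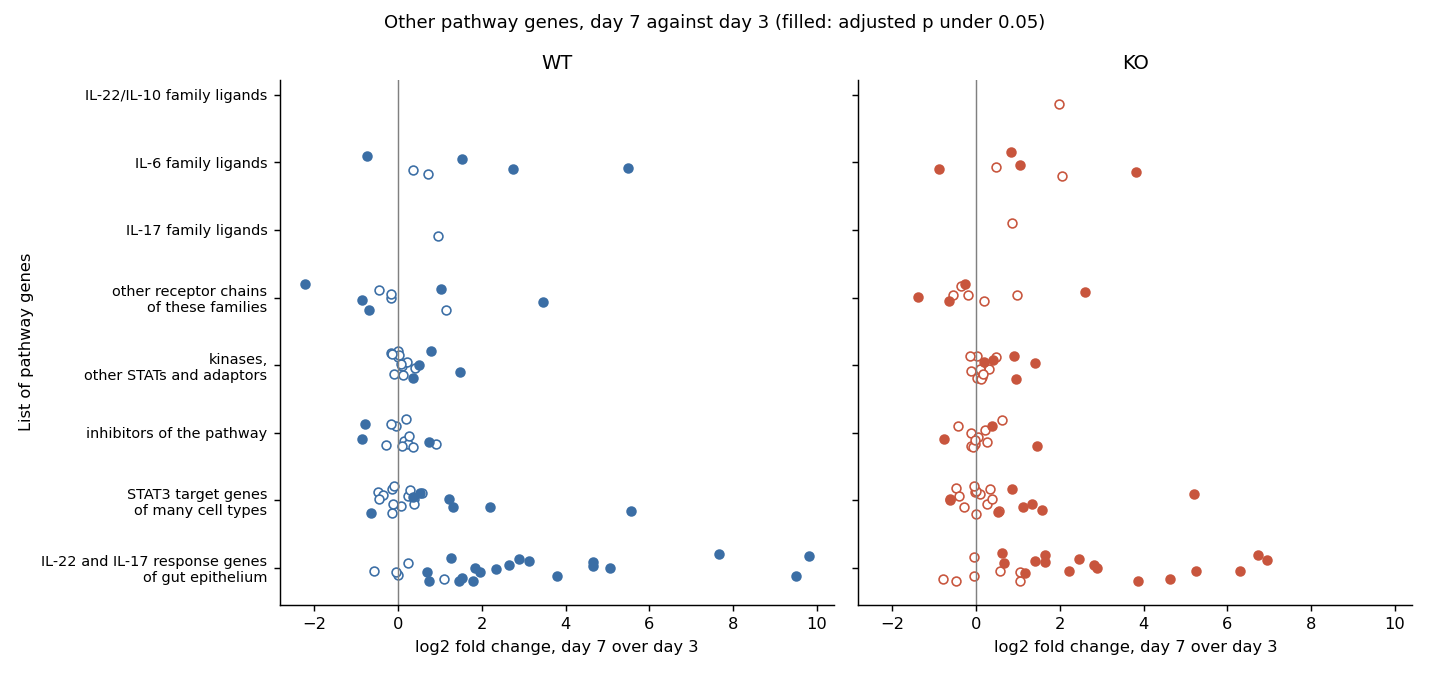
Log2 fold change from day 3 to day 7 of the other pathway genes that could be tested, 1 point per gene and 1 line of points per list, in WT (left) and KO (right). Filled points had an adjusted p under 0.05 in edgeR. The response genes of gut epithelium lie mostly to the right of 0, with 19 filled in WT and 16 in KO. Filled receptor chains lie on both sides of 0, with Lifr at -2.21 and Il10ra at 3.46 in WT. Filled inhibitors also lie on both sides, and filled kinases, STATs and adaptors lie to the right.

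Markers of leukocytes rose over the same days. All 7 pan-leukocyte markers were called higher on day 7 in each genotype, and their summed level was 22.04 to 64.4 CPM in WT day 3, 43.7 to 101.3 CPM in KO day 3, 69.0 to 387.9 CPM in WT day 7 and 111.4 to 326.4 CPM in KO day 7. All 8 neutrophil markers rose in both genotypes, with sums of 8.06 to 44.3 CPM in WT day 3, 13.5 to 143.9 CPM in KO day 3, 80.7 to 532.2 CPM in WT day 7 and 83.0 to 683.0 CPM in KO day 7. Macrophage and monocyte markers rose in 7 of 7 tested in WT and 7 of 8 in KO, and dendritic cell markers in 4 of 4 and 3 of 5. Of the 8 T cell and innate lymphoid markers, 2 of 7 tested rose in WT and 6 of 7 in KO. Of the epithelial markers 0 of 8 were called in WT and 1 of 8, Krt18, was lower in KO. The library labelled d3_KO_345 had the highest leukocyte, neutrophil, macrophage and dendritic cell sums of KO day 3, and without it 8 of 8 macrophage markers, 3 of 4 dendritic cell markers and again 7 of 7 leukocyte and 8 of 8 neutrophil markers were higher in KO on day 7. In bulk preparations, fewer cells of a type and less RNA per cell cannot be told apart. The part of leukocytes in the rises of Osmr, Socs3, Stat3, Il22ra2 and the pathway genes was not tested.

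**Figure D4:**
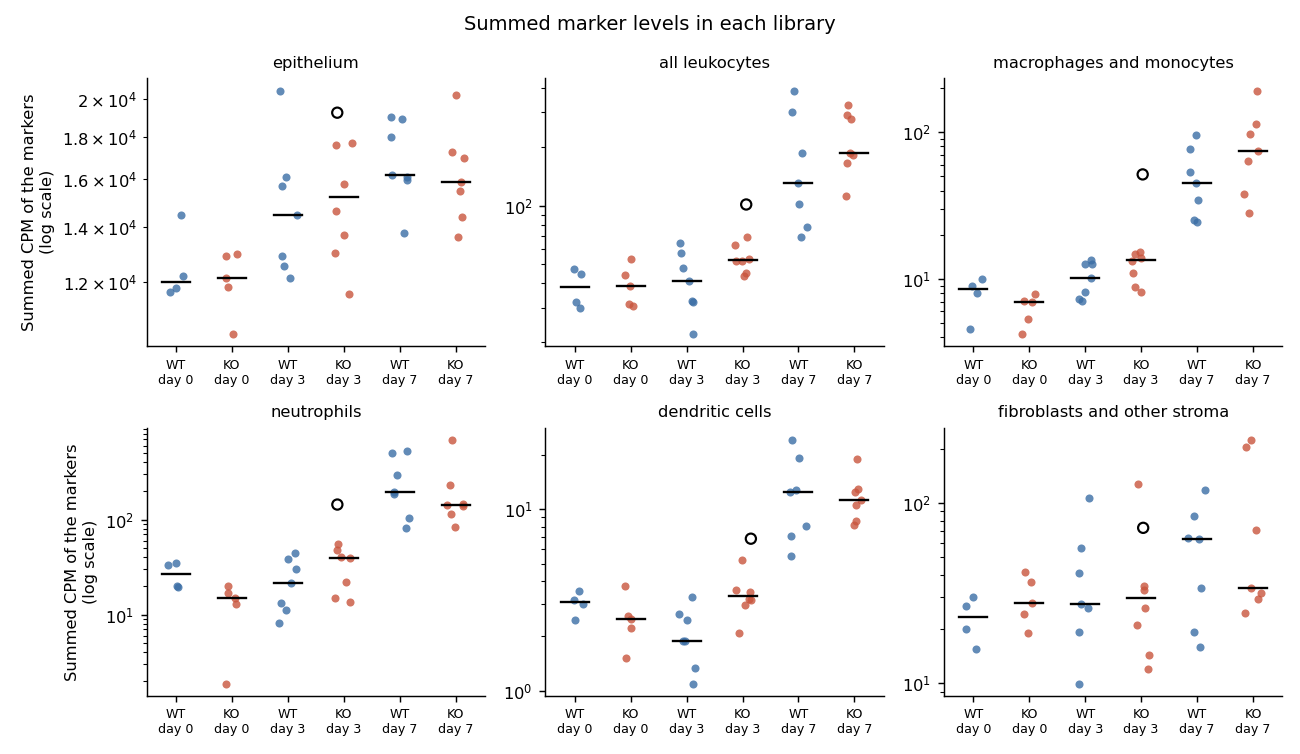
Summed level of the markers of 6 cell types in each library, in CPM on a log axis, by genotype and day. Points are libraries (WT blue, KO red), the open black circle is the library labelled d3_KO_345, and lines are medians. The leukocyte, neutrophil, macrophage and dendritic cell sums are higher on day 7 than on day 3, while the epithelial sums stay between 10370 and 20500 CPM.

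KO was compared with WT on each day to ask whether loss of Hk2 in the epithelium went with other levels of these genes. In edgeR, 0 of 7 genes tested were called on day 0, 0 of 9 on day 3, 0 of 9 on day 7 and 0 of 9 over days 3 and 7 with day as a covariate. Of all genes, 0.0335%, 0.00647%, 0.00642% and 0.0122% were called in these comparisons. At an unadjusted p under 0.05 there were 0 genes on day 0 (10.5% of all genes), 1 on day 3 (7.88%), 3 on day 7 (12.9%) and 3 over both days (21.5%). The DESeq2 Wald test also called 0 of these genes in each comparison. No gene had KO libraries wholly apart from WT libraries on any day, beside 3.39%, 0.0323% and 0.282% of all genes on days 0, 3 and 7. Il22ra2 and Osmr were left out on day 0 by the filter on low counts. The targeted gene Hk2 was called lower in KO on day 0 (-2.196, adjusted p 0.0331 by edgeR). Hk2 was not called on day 3 (-0.27, adjusted p 0.802 by edgeR) or over days 3 and 7 (-0.75, adjusted p 0.1125 by edgeR). Without d3_KO_345, Hk2 passed over both days (adjusted p 0.0498 by edgeR) and not on day 3 (-0.74, adjusted p 0.7699 by edgeR). On day 7 Hk2 was also not called in edgeR, with means of 139.6 CPM in KO and 332.2 CPM in WT. The lack of a call on day 3, on day 7 or over both days thus does not show that genotype made no difference.

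The decoy receptor Il22ra2 had the smallest p on day 7. WT libraries had 1.38, 0.622, 1.05, 0.423, 0.642, 1.83 and 1.21 CPM, and KO libraries 0.196, 0.419, 0.307, 0.641, 0.57, 0.819 and 0.322 CPM. Of the WT libraries, d7_WT_361, d7_WT_386 and d7_WT_393 lay within the KO range and the others above it. The log2 fold change of KO over WT was -1.15 (SE 0.35, unadjusted p 0.0053), and the edgeR adjusted p was 0.291 (0.109 to 0.433 over the other alternatives). On day 3 the difference was 0.54 (SE 0.33, adjusted p 0.653 by edgeR), with KO medians above WT medians. Dendritic cell markers (8 of 8 in the files) summed to 5.49 to 23.95 CPM in WT day 7 and 8.22 to 18.9 CPM in KO day 7, and their part in this difference was not tested.

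Il6st had values above WT in KO on both days of DSS, with log2 fold changes of 0.23 on day 3 (SE 0.12, adjusted p 0.627 by edgeR) and 0.42 on day 7 (SE 0.15, adjusted p 0.309 by edgeR). Over both days the difference was 0.32 (SE 0.10, unadjusted p 0.00328, adjusted p 0.096 by edgeR). It passed only when d3_WT_346 was left out (0.35, adjusted p 0.0499 by edgeR), and was 0.29 without the library labelled d3_KO_345 (adjusted p 0.134 by edgeR). Osmr was at 0.96 on day 3 (SE 0.55, adjusted p 0.637 by edgeR) and 0.96 on day 7 (SE 0.44, adjusted p 0.381 by edgeR). The day 3 value rested on the library labelled d3_KO_345, without which it was 0.21 (SE 0.39, adjusted p 0.912 by edgeR). Il22ra1 was at 0.28 on day 3 (SE 0.12, unadjusted p 0.0314, adjusted p 0.623 by edgeR) and 0.35 on day 7 (SE 0.25, adjusted p 0.544 by edgeR), the latter 0.088 without d7_KO_420.

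For the other genes the difference between genotypes was at most 0.26 in size on days 3 and 7. Socs3 differed by 0.26 on day 3 (SE 0.32) and 0.046 on day 7 (SE 0.27), and Stat3 by 0.13 (SE 0.13) and 0.065 (SE 0.15). Without the library labelled d3_KO_345 the day 3 differences were 0.21 for Socs3 (SE 0.33) and 0.029 for Stat3 (SE 0.11). These errors leave room for changes of either sign. On day 0 the values were -0.17 for Stat3 (SE 0.08, adjusted p 0.497 by edgeR) and -0.67 for Il6ra (SE 0.35, adjusted p 0.528 by edgeR). The change of the genotype difference from day 3 to day 7 was called for 0 of 9 genes and 0% of all genes in edgeR. At an unadjusted p under 0.05 this held for 1 of 9 genes, Il22ra2, and for 2.69% of all genes, and the DESeq2 Wald test called 0 of all genes.

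**Figure D5:**
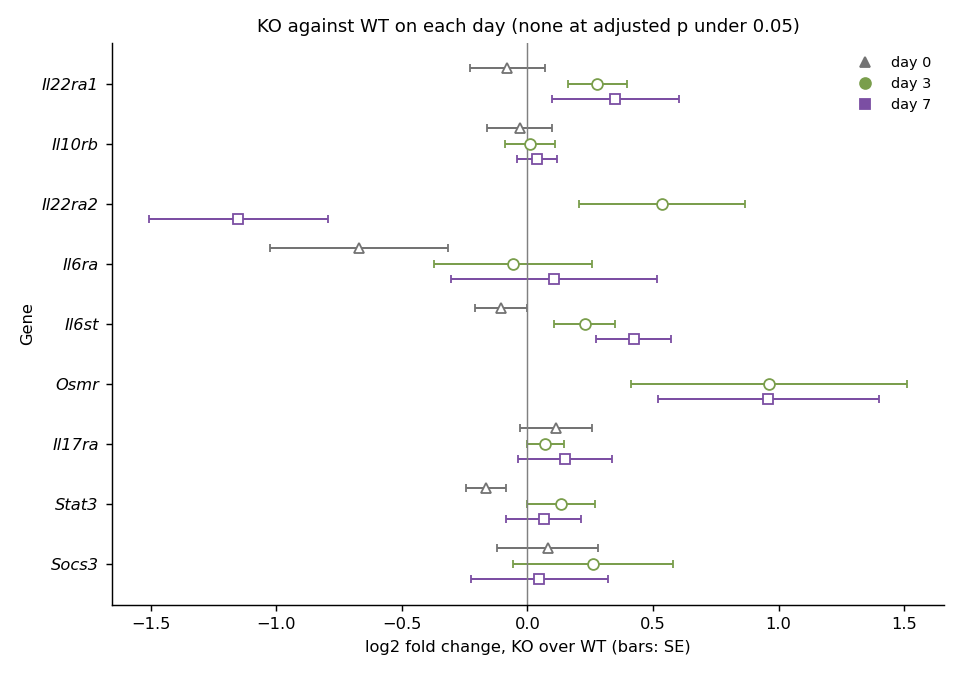
Log2 fold change of KO over WT for each gene on day 0 (triangles), day 3 (circles) and day 7 (squares), with bars of 1 SE. No symbol is filled, since none had an adjusted p under 0.05 in edgeR, and Il22ra2 and Osmr were not tested on day 0. Il22ra2 on day 7 lies farthest from 0, at -1.15.

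Comparisons with day 0 ask which genes had moved by day 3 and day 7, and they hold the change of library series. They also hold any difference in age, since the labels do not say which age the day 0 mice had. On day 3, 4 of 9 genes were called in WT (3 higher, 1 lower) and 5 of 9 in KO (4 higher, 1 lower), where 46% and 46.3% of all genes were called (20.4% higher and 25.6% lower in WT, 22.6% higher and 23.7% lower in KO). On day 7, 5 of 9 were called in WT (4 higher, 1 lower) and 6 of 9 in KO (6 higher), beside 56.9% and 54.6% of all genes (27.8% higher and 29.2% lower in WT, 27.3% higher and 27.3% lower in KO). Libraries stood apart from day 0 for 2 genes in WT and 3 in KO on day 3 (31.2% and 23.9% of all genes), and for 2 in WT and 4 in KO on day 7 (39.1% and 34.3%). The comparisons of day 3 and day 7 with day 0 share their day 0 libraries.

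Socs3 rose by day 3 by a log2 fold change of 1.61 in WT (SE 0.35, adjusted p 0.00209 by edgeR) and 1.80 in KO (SE 0.31, adjusted p 0.000225 by edgeR). By day 7 it was 9.45-fold above day 0 in WT (log2 3.24, SE 0.35) and 9.16-fold in KO (log2 3.20, SE 0.27), and its libraries stood apart from day 0 in each of the 4 comparisons. Il22ra1 fell by 0.79 on the log2 scale by day 3 in WT (SE 0.13, adjusted p 0.000195 by edgeR) and by 0.42 in KO (SE 0.14, adjusted p 0.0255 by edgeR). On day 7 its log2 fold change was -0.58 in WT (SE 0.23, adjusted p 0.0468 by edgeR, kept in 3 of 11 fits that each left out 1 library). The day 7 value in KO was -0.17 (SE 0.24, adjusted p 0.581 by edgeR), and -0.43 without d7_KO_420 (adjusted p 0.012 by edgeR).

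Il6ra had 1.58, 2.55, 2.75 and 2.48 CPM in the WT and 2.55, 0.469, 1.497, 1.153 and 1.488 CPM in the KO libraries of day 0. By day 3 it rose by 1.23 in WT (SE 0.41, adjusted p 0.0246 by edgeR) and 1.84 in KO (SE 0.34, adjusted p 0.000391 by edgeR), and every KO library of day 3 lay above those of day 0. The WT call was lost without d0_WT_31, d0_WT_41 or d0_WT_46, with values of 1.11 to 1.28, and d3_WT_381, at 0.987 CPM, lay below all WT libraries of day 0. Il10rb rose by day 3 by 0.42 in WT (SE 0.14, adjusted p 0.0272 by edgeR) and 0.46 in KO (SE 0.10, adjusted p 0.00186 by edgeR), and by day 7 by 0.65 (SE 0.12) and 0.71 (SE 0.09). Its libraries of day 7 stood apart from those of day 0 in both genotypes.

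Osmr had 0.485, 1.37, 0.145 and 0.451 CPM in WT day 0 and 0.318, 0.704, 0.437, 0.192 and 0.397 CPM in KO day 0. By day 7 it rose by 1.75 in WT (SE 0.64, adjusted p 0.0308 by edgeR, kept in 6 of 11 fits that each left out 1 library) and by 3.35 in KO (SE 0.46, adjusted p 3.86e-05 by edgeR). On day 3 it was at -1.18 in WT (SE 0.46, adjusted p 0.0512 by edgeR) and at 0.44 in KO (SE 0.73, adjusted p 0.647 by edgeR), and the KO value was -0.33 without the library labelled d3_KO_345. Stat3 rose by day 7 by 0.50 in WT (SE 0.18, adjusted p 0.0267 by edgeR) and 0.72 in KO (SE 0.11, adjusted p 0.000102 by edgeR). Its rise by day 3 in KO, 0.35 (SE 0.14, adjusted p 0.0453 by edgeR), was 0.24 without d3_KO_345 (adjusted p 0.0448 by edgeR), and it was kept in 5 of 13 fits that each left out 1 library. Il6st rose by day 7 in KO by 0.46 (SE 0.10, adjusted p 0.00206 by edgeR). Neither Il22ra2 nor Il17ra passed in any of the 4 comparisons with day 0.

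Genes of most similar pattern were sought over the 14 libraries of day 7, which share a library series, among 10663 genes. These correlations across WT and KO animals describe those libraries only. Stat3 was most like Furin, a proprotein convertase, with r = 0.96 (rho = 0.93), and Socs3 was most like Gda, guanine deaminase, with r = 0.93 (rho = 0.84). For both pairs r was 0.91 and 0.90 without d7_KO_420 and d7_WT_356, the libraries farthest from the median. Il22ra1 was most like Syne3, a nuclear envelope protein gene (r = 0.97), Il6st most like the adaptor gene Ap1g1 (r = 0.97), and Il17ra most like Pdlim7 (r = 0.94, and 0.75 without its 2 farthest libraries). Il6ra was most like Dab2, an endocytic adaptor gene (r = 0.94). Il22ra2 was most like Igha, the constant region of the IgA heavy chain (r = 0.82, and 0.68 without its 2 farthest libraries), and Il10rb most like the phosphatase subunit gene Ppp2r5a (r = 0.81).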

How the data were processed

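RNA was measured in 38 libraries, each deposited as 2 lanes. Per the file headers, the authors counted paired reads per gene with featureCounts 1.6.2, ignoring strand, and the deposited values are raw counts. The submitters' processing notes name featureCounts 1.5.2, Trim Galore, STAR and GRCm38, and the labels' protocols a stranded mRNA kit with pairs of 50 bases and an average of 23 M reads. Coordinates are those of the files. Lanes were summed, which gave 10.5 to 60.6 M counts per library. The limit given for a library without counts of a gene covers counting error only. Groups came from the genotype and day in the labels.

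Each comparison used edgeR 4.0.16 (quasi-likelihood, TMM, its expression filter by group) on the compared groups in R 4.3.3, with Benjamini-Hochberg adjustment over all genes tested; genes with an adjusted p under 0.05 were called. The SE is the log2 fold change over the root of its F statistic. The 9 genes, the lists and the tests were chosen with earlier results of these data known. Of each list, up to 4 genes with the largest change among those called at a mean log2 CPM of at least 1 between day 7 and day 3 are named; genes named beyond these were chosen after their values were seen. Likeness is the highest Pearson r of log2 CPM (prior count 2) among genes at a mean log2 CPM of at least 2. Alternatives were DESeq2 1.42.0 size factors, the DESeq2 Wald test, no filter, a mean CPM of at least 1, all 38 libraries, lane 1 alone, and leaving out each library. The procedure was tested on simulated counts. Some results are not reported here.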

Additional observations from a re-analysis of the deposited data

Results flagged for a closer look

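Of 60 combinations of gene and group, Hk2 included, 10 had a highest library far from the others by Dixon's test at the 95% level, in 6 libraries; chance flags about 1 in 20. In d7_KO_420, Il22ra1 was 68.8 CPM (others 22.9 to 33.9), Il17ra 56.9 CPM (others 22.3 to 29.5) and Stat3 272.7 CPM (others 164.1 to 196.1). That library also had the highest summed neutrophil markers of its group, at 683.0 CPM (others 83.0 to 232.8). In the library labelled d3_KO_345, Osmr was 2.04 CPM (others 0.0685 to 0.671), Stat3 223.8 CPM (others 115.2 to 163.5) and Hk2 434.6 CPM (others 68.4 to 127.9). Its neutrophil markers summed to 143.9 CPM (others 13.5 to 54.95) and its macrophage markers to 51.6 CPM (others 8.195 to 15.23).

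Il10rb was 68.6 CPM in d3_WT_381 (others 42.7 to 52.0), a library whose small intestine enterocyte markers summed to 1217 CPM (others 199.7 to 337.8), and 48.1 CPM in d0_WT_31 (others 34.3 to 35.4). Il6st was 45.5 CPM in d0_KO_53 (others 34.9 to 37.6). Hk2 was 611.1 CPM in d7_WT_356 (others 228.2 to 317.2), the library that also had the highest Stat3, Socs3 and Osmr of WT day 7.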

How the results depend on the processing

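No paired analysis was possible because the groups share no animal numbers. Of 566 values of the 9 genes under alternatives other than leaving out a library, 535 kept their direction and side of the threshold, 16 were no longer called, 8 were newly called and 7 reversed. Of 1530 that left out 1 library, 1376 kept both, 59 were no longer called, 12 were newly called and 83 reversed, none of them called in the full data. Of the other genes named, 218 of 222 and 495 of 537 kept both, and the rest were no longer called. Causes were not tested.

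Genes called between KO and WT numbered 177 by the DESeq2 Wald test and 52 without a filter on day 0, against 5. On day 3, against 1, there were 2 by the DESeq2 Wald test and 0 at a mean CPM of at least 1. On day 7, against 1, there were 83 by the DESeq2 Wald test, 2 without a filter, 0 at a mean CPM of at least 1 and 38 with all 38 libraries. Over days 3 and 7, against 2, these were 555, 0 at a mean CPM of at least 1, 159 with all 38 libraries and 1 with lane 1. Leaving out 1 library gave 0 to 37 on day 0 (37 without d0_WT_31, 0 without d0_WT_41), 0 to 1 on day 3, 1 to 2 on day 7 and 1 to 555 over both days (555 without d3_WT_346).

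Of the 9 genes, those called from day 3 to day 7 in WT were 3 without a filter and 3 at a mean CPM of at least 1, against 5, and in KO 5 with all 38 libraries, against 3. From day 0 to day 3 in KO they were 3 with all 38 libraries, against 5. Leaving out 1 library gave 3 to 5 in WT and 2 to 5 in KO from day 3 to day 7, 2 to 5 and 3 to 5 from day 0 to day 3, 2 to 5 and 6 to 7 from day 0 to day 7, and 0 to 1 for KO over WT on days 3 and 7. The counts of all genes called between days, 2323 to 4051 in WT and 2470 to 3518 in KO from day 3 to day 7, stayed within 1.5 times the full count, also against day 0.

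Log2 fold changes that reversed were those of Il22ra2 from day 0 to day 3 in WT without a filter (0.028), Stat3 there at a mean CPM of at least 1 (-0.036) and Il6st from day 0 to day 7 in WT without a filter (0.031). The change of the KO over WT difference from day 3 to day 7 for Osmr reversed with DESeq2 size factors (-0.012), without a filter (-0.0032), at a mean CPM of at least 1 (-0.0032) and with all 38 libraries (-0.015). Values that reversed when 1 library was left out had these ranges. For KO over WT they were -0.077 to 0.10 for Il10rb and -0.10 to 0.21 for Socs3 on day 0, and -0.031 to 0.087 for Il10rb and -0.24 to 0.11 for Il6ra on day 3. On day 7 they were -0.10 to 0.35 for Il6ra, -0.066 to 0.22 for Il17ra, -0.030 to 0.18 for Stat3 and -0.080 to 0.31 for Socs3, and over both days -0.0023 to 0.065 for Il10rb and -0.088 to 0.12 for Il6ra. From day 3 to day 7 they were -0.046 to 0.11 for Il6st in WT and -0.010 to 0.32 for Il22ra1 in KO. From day 0 to day 3 they were -0.37 to 0.56 for Il22ra2, -0.12 to 0.0028 for Il17ra and -0.026 to 0.11 for Stat3 in WT and -0.33 to 0.70 for Osmr in KO, and from day 0 to day 7 -0.14 to 0.027 for Il6st in WT. For the change of the KO over WT difference they were -0.19 to 0.22 for Il22ra1, -0.055 to 0.078 for Il10rb, -0.056 to 0.41 for Il6ra, -0.17 to 0.75 for Osmr, -0.13 to 0.15 for Il17ra, -0.16 to 0.053 for Stat3 and -0.42 to 0.050 for Socs3. Counts per library were low for Il22ra2 (0 to 85), Osmr (2 to 316) and Il6ra (4 to 530), which limits the precision of their levels.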
